A study of Saccharomyces cerevisiae with 27 samples.

Results

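Chaperones of the heat shock response are described here as a set of 10 genes out of the 6692 in the deposited table. They were chosen by name, with earlier results of these data known. The set holds the cytosolic Hsp70 genes SSA1, SSA2, SSA3, and SSA4, the Hsp90 genes HSP82 and HSC82, the disaggregase genes HSP104 and HSP78, the small heat shock gene HSP42, and the aggregate sorting gene BTN2. Their RNA was measured by RNA-seq in BY4741, a MATa haploid laboratory strain of Saccharomyces cerevisiae that carries his3Δ1, leu2Δ0, met15Δ0, and ura3Δ0 in every group. Cells grew in synthetic complete medium with 2% glucose (non-restricted, NR) with concentrated CRCM or concentrated NRCM added at 2% of the volume, or with water. They were harvested in log phase and after 24 h and 96 h. CRCM is medium conditioned by stationary cultures of calorie-restricted cells, which had less glucose, and NRCM is medium conditioned by stationary NR cultures. The 27 libraries form 9 groups of 3 biological replicates: CRCM, NRCM, and water at each time point. All 10 genes passed the filter on low values at every time point, with 199 to 130621 reads on a gene in a library. Since whole cultures were collected, fewer cells with an RNA and less RNA per cell cannot be told apart.

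Hsp70 proteins bind exposed hydrophobic stretches of unfolded proteins in cycles of ATP binding and hydrolysis, and Hsp90 acts later, on near-native clients such as kinases and hormone receptors. Hsp104 pulls proteins out of aggregates together with Hsp70, small heat shock proteins hold misfolded proteins in aggregates from which they can be recovered, and Btn2 gathers aggregates at defined sites. Many of these genes are driven in yeast by Hsf1, a trimeric factor that binds heat shock elements, and by Msn2 and Msn4, which bind stress response elements. SSA2 and HSC82 are known as the forms made in unstressed cells, and SSA3, SSA4, and HSP82 as forms made under stress.

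In the sacCer3 build, SSA1 (YAL005C) is at chrI:139503-141431 and SSA3 (YBL075C) at chrII:84499-86448, both on the minus strand. SSA2 (YLL024C, chrXII:95566-97485, minus strand) lies near HSP104 (YLL026W, chrXII:88623-91349, plus strand), and SSA4 (YER103W) is at chrV:364589-366517 on the plus strand. HSP82 (YPL240C) is at chrXVI:96496-98625 on the minus strand and HSC82 (YMR186W) at chrXIII:632355-634472 on the plus strand. HSP78 (YDR258C, chrIV:971808-974243, minus strand) and HSP42 (YDR171W, chrIV:806621-807748, plus strand) share a chromosome, and BTN2 (YGR142W) is at chrVII:772454-773686 on the plus strand. Each is a coding sequence of 1 exon, and none overlaps another RefSeq coding gene. A heat shock element was searched upstream of the start codon as 3 adjoining units in which NTTCN and NGAAN take turns, beginning with either. This pattern reads alike on both strands, and overlapping matches were joined into 1 run. It was present within 500 bases of 6 of the 10 genes, against 1.5% of 6005 genes, and within 300 bases of 5 of the 10, against 0.9% of 6006. The 7 runs found are shown because few other promoters hold this element. Each is on the coding strand of its gene in the RefSeq sequence of the sacCer3 build, with the matching bases in capitals:
SSA1 (chrI:141766-141807, minus strand): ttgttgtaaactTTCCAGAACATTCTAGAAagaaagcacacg
SSA1 (chrI:141668-141704, minus strand): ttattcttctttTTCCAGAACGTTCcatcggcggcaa
SSA2 (chrXII:97694-97730, minus strand): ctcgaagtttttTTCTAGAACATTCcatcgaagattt
HSP104 (chrXII:88309-88350, plus strand): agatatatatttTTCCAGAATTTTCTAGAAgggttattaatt
HSP78 (chrIV:974461-974502, minus strand): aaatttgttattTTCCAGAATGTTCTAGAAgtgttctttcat
HSP42 (chrIV:806366-806407, plus strand): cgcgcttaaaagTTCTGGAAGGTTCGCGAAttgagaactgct
BTN2 (chrVII:772098-772139, plus strand): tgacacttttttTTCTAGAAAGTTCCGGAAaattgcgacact

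The runs of HSP104, HSP78, HSP42, and BTN2 and the first of SSA1 hold 4 units in 18 bases, and the other 2 hold 3 units in 13 bases. Counted from the start codon, the matches began at -364 and -261 for SSA1, at -233 for SSA2, -302 for HSP104, -247 for HSP78, -243 for HSP42, and -344 for BTN2. No such match was in the window of SSA3, SSA4, HSP82, or HSC82. The stress response element (AGGGG or CCCCT) was within 300 bases of 6 of the 10 genes, against 22.2% of 6006 genes. Those 6 were SSA1, SSA4, HSP82, HSP104, HSP78, and HSP42, and the same element was within 500 bases of 34.0% of 6005 genes. Elements that depart from these letters were not searched.

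The deposited values were shares of each library's total, from which the reads were recovered, with totals of 7396427 to 114316140 reads (median 12375094). Levels are given as CPM (reads scaled to the same library total) divided by TMM factors, a library scaling that assumes most genes do not differ. These factors came from the 9 libraries of a time point for comparisons of supplements and from all 27 for comparisons of times. In CRCM at 24 h against log phase 39.7% of all genes were higher and 36.5% lower. In CRCM against water at 24 h 27.2% were higher and 24.2% lower, so the assumption may not hold in these comparisons. CRCM replicate 3 at 96 h stood apart, with 68.1 CPM on LEU2 and 11.7 CPM on URA3, although BY4741 lacks both genes. No other library exceeded 0.174 CPM on LEU2 or 0.177 CPM on URA3. MET15 had 0 CPM in this library as in all others. HIS3 had 49.2 CPM in it, against at most 58.4 CPM elsewhere. Because of its LEU2 and URA3 reads, the members' fold changes in CRCM against water at 96 h, and each call this library changed, are given also without it. The lists of related genes at 96 h include it. SSA1 and SSA2 share 97.7% of their residues and only 42.1% and 41.8% of their stretches of 50 bases are unique in the genome, so the split of reads between them is uncertain. For HSP82 and HSC82, whose proteins are 97.0% identical, 93.6% of each gene is unique by this measure. The other 6 genes are unique along their whole length.

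At log phase the constitutive forms HSC82 and SSA2 stood highest. Per kilobase of coding length, on the scale over 27 libraries, the levels in water were 827.5 ± 58.9 CPM for HSC82, 785.7 ± 271.5 for SSA2, and 489.3 ± 156.4 for SSA1 (SD, n = 3). HSP104 had 132.7 ± 41.3 CPM per kilobase in water at log phase. The 6 other genes lay below it, at 24.57 (BTN2) to 81.23 (HSP82). At 24 h in water the order was different, with SSA1 (2414 ± 153.5 CPM per kilobase), HSP82 (2185 ± 586.1), and HSP104 (1873 ± 409.1) at the top and HSP78 (492.3 ± 105.1) at the bottom. SSA1 and HSP82 differed by less than the spread of the HSP82 replicates. In CRCM at 24 h, HSP42 led with 655 ± 36.2 CPM per kilobase and SSA1 followed with 519.8 ± 19.7, while BTN2 was lowest with 83.22 ± 7.08.

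**Figure D1:**
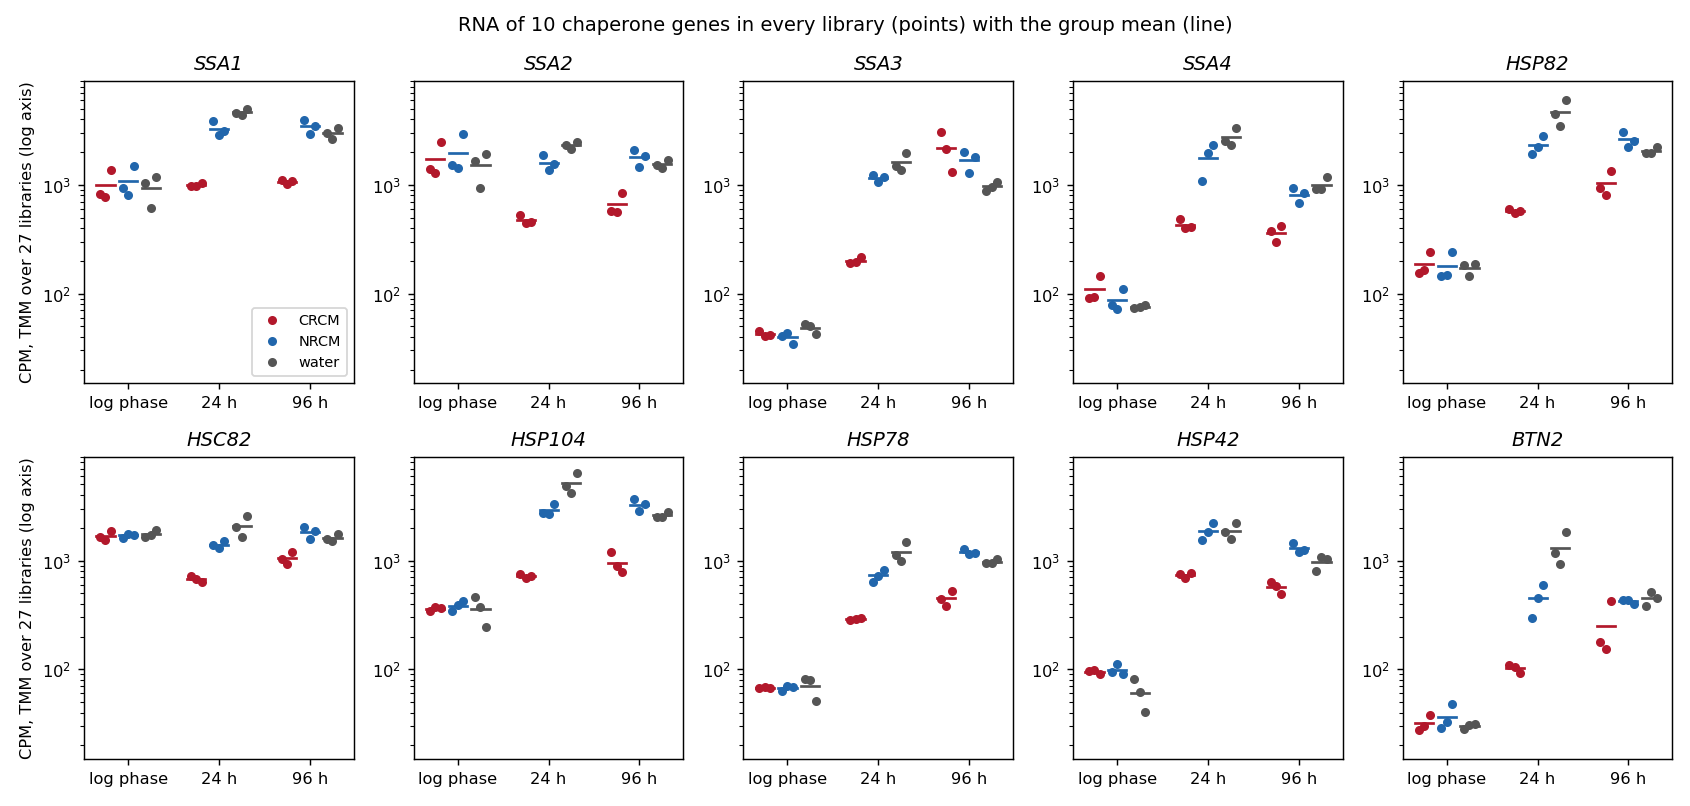
CPM of each chaperone gene (log axis, TMM factors over 27 libraries) at log phase, 24 h, and 96 h in CRCM (red), NRCM (blue), and water (gray), with 1 point per library and a line at the group mean. The 3 supplements lie close together at log phase, and all CRCM points lie below the NRCM and water points of every gene at 24 h, from BTN2 (102.6 CPM on average in CRCM, against 1311 CPM in water) to HSP42 (738.9 CPM, against 1876 CPM).

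The main comparison asked how CRCM changed the RNA of NR cells, and the chaperones differed most at 24 h. All 10 chaperone RNAs were lower in CRCM than in water at an adjusted p under 0.05 (limma), where 24.2% of the 6577 genes tested were lower. Their log2 fold changes, of CPM + 1, ran from -3.62 to -1.35 with a median of -2.49, against a median of 0.02 over all genes tested. No member had a CRCM library as high as any water library, which held for 68.3% of all genes in either direction. Without TMM factors the median of all genes was 0.42, with 3777 genes higher and 656 lower in place of 1790 and 1594, and all 10 members were still lower. Together the 10 genes took 0.57% ± 0.01 of the reads of CRCM libraries, 1.51% ± 0.09 in NRCM, and 2.27% ± 0.37 in water (SD, n = 3 each).

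Among the Hsp70 genes, SSA3 fell the most. SSA3 had 171.9, 178.7, and 199.1 CPM in CRCM, 1141, 982.9, and 1081 CPM in NRCM, and 1373, 1262, and 1832 CPM in water, on the scale of the 24 h libraries. The CRCM libraries lay close together and far below the others, and NRCM lay below water without overlap. SSA3 had a log2 fold change of -3.00 ± 0.14 in CRCM against water (SE from limma, adjusted p = 3.73e-06). SSA4, another inducible form, had 434, 368.4, and 376.4 CPM in CRCM, 999.7, 1812, and 2111 CPM in NRCM, and 2348, 2140, and 3133 CPM in water. NRCM replicate 1 was the lowest of the NRCM libraries by a wide margin, and the change in CRCM against water was -2.67 ± 0.26 (adjusted p = 5.12e-05).

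SSA1, the most abundant of the 4 at this time, had 881.7, 900.1, and 964.5 CPM in CRCM, 3527, 2656, and 2864 CPM in NRCM, and 4205, 4040, and 4653 CPM in water. SSA2 had 473.7, 406.5, and 417 CPM in CRCM, 1724, 1284, and 1419 CPM in NRCM, and 2132, 1967, and 2319 CPM in water. Both genes kept the same order of groups with no overlap. The CRCM mean was 21.3% of the water mean for SSA1 (log2 fold change -2.23 ± 0.14) and 20.2% for SSA2 (-2.30 ± 0.13). With the reads of SSA1 and SSA2 summed, which sets aside how reads were split between them, the change was -2.25 ± 0.14 (adjusted p = 6.9e-06).

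Of the Hsp90 pair, the inducible HSP82 fell further than the constitutive HSC82. HSP82 had 544.5, 508.5, and 529.9 CPM in CRCM, 1787, 2081, and 2570 CPM in NRCM, and 4138, 3194, and 5573 CPM in water. Its CRCM mean was 12.3% of the water mean (log2 fold change -2.99 ± 0.20, adjusted p = 8.54e-06). HSC82 had 655.2, 613.5, and 582.2 CPM in CRCM, 1285, 1213, and 1376 CPM in NRCM, and 1852, 1499, and 2387 CPM in water. The change of HSC82 was -1.61 ± 0.16 (adjusted p = 5.92e-05). The 3 CRCM libraries were again below all others for both genes.

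HSP104, the cytosolic disaggregase of the ClpB family, had 684.6, 635.1, and 668.6 CPM in CRCM, 2503, 2495, and 3054 CPM in NRCM, and 4453, 3801, and 5911 CPM in water. The log2 fold change in CRCM against water was -2.81 ± 0.17 (adjusted p = 5.72e-06). HSP78 encodes the related disaggregase of the mitochondrial matrix, identical to Hsp104 at 39.5% of the residues of Hsp104, the longer protein. It had 254, 263.5, and 275.2 CPM in CRCM, 589, 677.1, and 757.3 CPM in NRCM, and 1026, 911.7, and 1388 CPM in water. The change of HSP78 was -2.04 ± 0.16 (adjusted p = 1.55e-05).

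BTN2 and HSP42, which act on where aggregates form, gave the largest and the smallest change of the 10. BTN2 had 98.7, 96.6, and 85.55 CPM in CRCM, 275.7, 425.4, and 543.9 CPM in NRCM, and 1083, 850.5, and 1704 CPM in water. Its CRCM mean was 7.72% of the water mean (log2 fold change -3.62 ± 0.28, adjusted p = 1.53e-05). HSP42 had 684.2, 633.6, and 705.6 CPM in CRCM, 1413, 1723, and 2022 CPM in NRCM, and 1692, 1435, and 2073 CPM in water. Here NRCM and water overlapped while CRCM stood below both, and the change in CRCM against water was -1.35 ± 0.17 (adjusted p = 0.000202).

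NRCM was compared with water in the same way, to ask whether medium from NR cultures acted alike. By this test the adjusted p was under 0.05 for 6 of the 10 genes, all lower in NRCM, where 6.36% of all genes tested were lower. The median over the 10 was -0.61, against -0.01 over all genes. BTN2 (log2 fold change -1.54 ± 0.28, adjusted p = 0.0104) and HSP82 (-0.98 ± 0.20, adjusted p = 0.0171) fell the most. HSP104 (-0.80 ± 0.17), HSP78 (-0.70 ± 0.16), SSA2 (-0.54 ± 0.13), and SSA1 (-0.52 ± 0.14) also fell. SSA4 (-0.68 ± 0.26), HSC82 (-0.54 ± 0.16), and SSA3 (-0.46 ± 0.14) had adjusted p values of 0.107, 0.0522, and 0.0607, and HSP42 had -0.01 ± 0.17. The groups did not overlap for 9 of the 10 genes, as for 31.6% of all genes. The count rests on single libraries: it was 1 without water replicate 1, without water replicate 3, or without NRCM replicate 2, and 1 when only the 6 libraries compared were fitted. With the replicate number as a block it was 8, since SSA3 (adjusted p = 0.0447) and HSC82 (adjusted p = 0.048) were added. The share of all genes under these alternatives is not given here.

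CRCM against NRCM tested the difference between the 2 conditioned media directly. All 10 genes were lower in CRCM at 24 h, where 19.8% of all genes were, with log2 fold changes of -2.54 (SSA3) to -1.06 (HSC82) and a median of -1.88. No member overlapped between the media, as 53.8% of all genes did not. HSP42, which did not separate NRCM from water, had -1.33 ± 0.17 in CRCM against NRCM (adjusted p = 0.000315). BTN2 had -2.08 ± 0.28 and HSP104 had -2.01 ± 0.17. These comparisons share the CRCM libraries with those against water, and those against water share the water libraries.

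**Figure D2:**
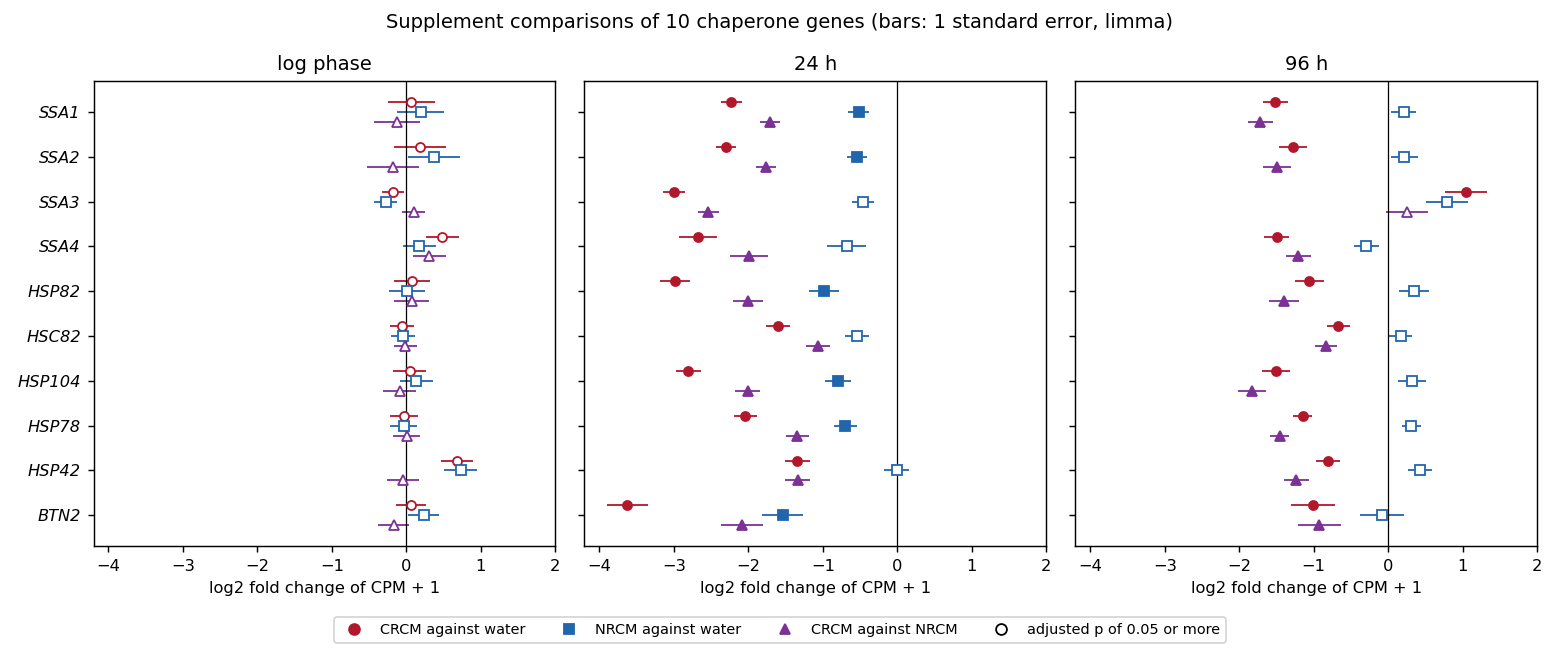
Log2 fold changes of CPM + 1 (bars, 1 standard error from limma) of the 10 chaperone genes at log phase, 24 h, and 96 h for CRCM against water (circles), NRCM against water (squares), and CRCM against NRCM (triangles), filled where the adjusted p was under 0.05. All circles and triangles are filled and below 0 at 24 h, and at 96 h SSA3 is the single gene with a filled circle above 0 (1.04 ± 0.28).

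At 96 h 9 of the 10 genes were lower in CRCM than in water (21.8% of the 6652 genes tested were lower) and SSA3 was higher (19.6% were higher). The median over the 10 was -1.10, against -0.01 over all genes, and 9 genes had no overlap between the groups, as had 53.6% of all genes. SSA1 had 1365, 1259, and 1311 CPM in CRCM, 4973, 3693, and 4398 CPM in NRCM, and 3741, 3387, and 4155 CPM in water, on the scale of the 96 h libraries. HSP104 had 1482, 1117, and 938.5 CPM in CRCM, 4637, 3585, and 4184 CPM in NRCM, and 3177, 3229, and 3507 CPM in water. For both genes CRCM was far below both other groups, and the log2 fold changes in CRCM against water were -1.51 ± 0.17 for SSA1 and -1.51 ± 0.19 for HSP104. Without CRCM replicate 3 they were -1.51 for SSA1 and -1.36 for HSP104.

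SSA4 (-1.50 ± 0.17), SSA2 (-1.28 ± 0.18), HSP78 (-1.15 ± 0.13), HSP82 (-1.06 ± 0.20), HSP42 (-0.81 ± 0.16), and HSC82 (-0.67 ± 0.15) were also lower in CRCM than in water at 96 h. Leaving out the CRCM library with LEU2 and URA3 reads gave -1.59, -1.45, -1.25, -1.26, -0.69, and -0.75 for these genes. HSP82, for example, had 1175, 997.5, and 1632 CPM in CRCM, 3842, 2856, and 3207 CPM in NRCM, and 2473, 2484, and 2816 CPM in water. The library with LEU2 and URA3 reads was the highest of the 3 CRCM libraries for HSP82 and the lowest for SSA3 and HSP104.

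SSA3 moved in the opposite direction. It had 3782, 2670, and 1575 CPM in CRCM, 2529, 1639, and 2274 CPM in NRCM, and 1109, 1225, and 1341 CPM in water. Every CRCM library was above every water library, but CRCM and NRCM overlapped. The log2 fold change of SSA3 in CRCM against water was 1.04 ± 0.28 (adjusted p = 0.0136), and 1.38 ± 0.22 (adjusted p = 0.000341) without CRCM replicate 3. Against NRCM it was 0.25 ± 0.28 (adjusted p = 0.515), and 0.59 ± 0.22 (adjusted p = 0.046) without that replicate. BTN2 depended most on this library, with 223.1, 191, and 510.6 CPM in CRCM, 547.5, 547.5, and 501.2 CPM in NRCM, and 483.3, 653.7, and 567.5 CPM in water. Replicate 3 lay among the NRCM and water libraries while the other CRCM libraries lay well below them. The change of BTN2 in CRCM against water was -1.01 ± 0.29 (adjusted p = 0.0179, or 0.05 and no longer called with only the 6 libraries compared), and -1.45 ± 0.13 (adjusted p = 5.47e-06) without it. BTN2 lost its call without water replicate 2 (-0.90, adjusted p = 0.0726) or CRCM replicate 2 (-0.74, adjusted p = 0.0689).

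In NRCM at 96 h none of the 10 genes differed from water at an adjusted p under 0.05, where 24.5% of all genes differed. By limma 3 of the 10 (SSA3, HSP78, and HSP42) were higher at an unadjusted p under 0.05, as were 19.3% of all genes. On the recovered reads DESeq2 called 3 members higher, where it called 15.6% of all genes, and edgeR called 0, where it called 12.4%. The groups did not overlap for 5 genes, as for 54.1% of all genes. The median was 0.26, and the log2 fold changes ran from -0.29 (SSA4) to 0.79 (SSA3, SE 0.28, adjusted p = 0.0642). In CRCM against NRCM 9 genes were lower, where 19.7% of all genes were, from -1.83 ± 0.19 for HSP104 to -0.84 ± 0.15 for HSC82. Without CRCM replicate 3 they ran from -1.72 for SSA1 to -0.92 for HSC82, with -1.68 for HSP104. The groups did not overlap for 8 genes, as for 47.5% of all genes. The lower call of BTN2 (-0.93 ± 0.29, adjusted p = 0.029) was lost without any 1 of NRCM replicates 1, 2, or 3 or CRCM replicates 1 or 2, with adjusted p values of 0.0638 to 0.108. It was lost as well with edgeR (-0.79, adjusted p = 0.0653) and with only the 6 libraries compared (-0.90, adjusted p = 0.0796).

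The make-up of the Hsp70 RNA differed along with its amount. The share of each gene among the reads of SSA1 to SSA4 within a library needs no scaling. SSA1 and SSA2 together held 94.5% ± 0.7 of these reads in CRCM, 95.7% ± 0.9 in NRCM, and 94.7% ± 2.1 in water at log phase (SD, n = 3 each). At 24 h they held 70.1% ± 0.8 in CRCM, 62.3% ± 7.6 in NRCM, and 61.8% ± 2.9 in water. SSA3 at 24 h held 8.8, 9.6, and 10.2% in CRCM, 15.4, 14.6, and 14.5% in NRCM, and 13.6, 13.4, and 15.4% in water, so that every CRCM library was below every other. At 96 h SSA3 held 59.7, 53.4, and 35.8% in CRCM, 22.4, 20.3, and 22.6% in NRCM, and 14.1, 16.1, and 14.8% in water. It was then the largest of the 4 in every CRCM library, including the library with LEU2 and URA3 reads, and in no other library of the series. SSA1 and SSA2 together held 32.8, 39.3, and 52.9% in these CRCM libraries. In the last, replicate 3, the rank of SSA3 thus rests on the uncertain split of reads between SSA1 and SSA2. The CRCM mean of SSA3 was 34.7 percentage points above the water mean and 27.9 above the NRCM mean. Each exact two-sided permutation test gave p = 0.10, the smallest that 3 against 3 libraries allow. SSA4 held 8.7% ± 2.3 in CRCM, 10.5% ± 0.2 in NRCM, and 15.4% ± 0.8 in water at 96 h.

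The same view of the Hsp90 pair showed HSP82 at 9.8% ± 1.4 of the reads of both genes in CRCM, 9.4% ± 2.5 in NRCM, and 9.0% ± 1.1 in water at log phase. At 24 h it held 46.1% ± 1.3 in CRCM, 62.2% ± 3.6 in NRCM, and 69.1% ± 1.0 in water, with no overlap between any pair of groups. At 96 h the shares were 49.2% ± 3.6 in CRCM, 58.8% ± 1.1 in NRCM, and 55.9% ± 0.3 in water, again without overlap. The CRCM library with LEU2 and URA3 reads had 53.2%, and the other CRCM libraries had 48.0 and 46.2%. Exact permutation tests of each pair at 24 h and 96 h gave p = 0.10, the smallest they allow.

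**Figure D3:**
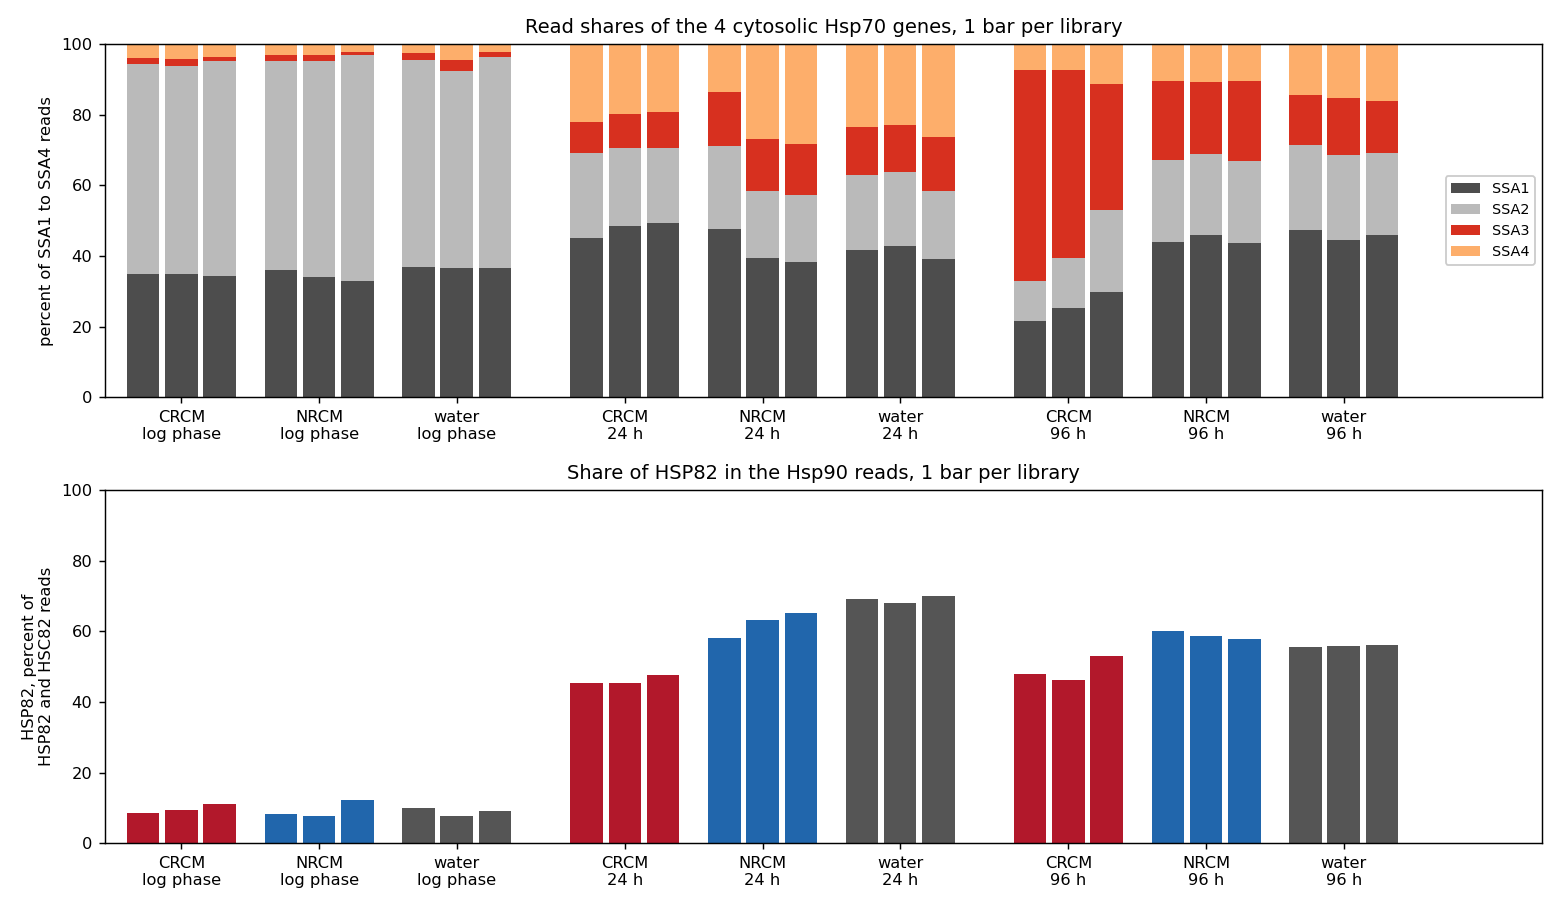
Percent of the reads of SSA1 to SSA4 on each gene (upper panel) and percent of the HSP82 and HSC82 reads on HSP82 (lower panel), with 1 bar per library, grouped by time and by CRCM, NRCM, and water. SSA3 takes the largest part of the bar in the 3 CRCM libraries at 96 h (59.7, 53.4, and 35.8%), and HSP82 is below every NRCM and water library in CRCM at 24 h and 96 h.

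At log phase no member passed the test in any comparison. Of the 6483 genes tested, 0% differed in CRCM against water, 0.0154% in NRCM against water, and 0% in CRCM against NRCM, where no member separated the groups, as 6.34% of all genes did. At an unadjusted p under 0.05, SSA4 and HSP42 were higher in CRCM than in water, as were 1.76% of all genes, and HSP42 was higher in NRCM than in water, as were 4.80% of all genes. Between CRCM and NRCM no member had such a p, where 0.818% of all genes did. HSP42 had 82.83, 84.96, and 79.56 CPM in CRCM, 81.07, 95.13, and 80.54 CPM in NRCM, and 70.64, 54.62, and 34.67 CPM in water. Water was below both media without overlap, as it was for 8.45% of all genes against CRCM and 9.92% against NRCM in either direction, and the log2 fold changes were 0.68 ± 0.22 in CRCM (adjusted p = 0.998) and 0.73 ± 0.22 in NRCM (adjusted p = 0.547). SSA1 and SSA2 varied among replicates at this stage, with SSA2 at 1201, 1103, and 2171 CPM in CRCM, 1312, 1230, and 2604 CPM in NRCM, and 1454, 812.9, and 1665 CPM in water. Replicate 3 was the highest in each group, and standard errors of 0.35 for SSA2 and 0.32 for SSA1 set how small a difference could be detected.

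Along the culture's age, most of the chaperone RNAs rose at 24 h against log phase, more in water than in CRCM. In water 9 genes rose, where 37.1% of all 6658 genes did, with log2 fold changes of 5.33 ± 0.29 for BTN2, 5.14 ± 0.23 for SSA4, 5.02 ± 0.21 for SSA3, 4.96 ± 0.19 for HSP42, and 4.72 ± 0.23 for HSP82. The constitutive forms moved least, with 0.68 ± 0.28 for SSA2 (0.37, adjusted p = 0.233, without water log-phase replicate 2) and 0.22 ± 0.16 for HSC82 (adjusted p = 0.23). SSA2 lost its call as well without TMM factors (0.53, adjusted p = 0.0746). The same held without water replicate 1 (0.68, adjusted p = 0.0574) or 3 (0.63, adjusted p = 0.0756) at 24 h. In NRCM 8 genes rose, where 38.9% of all genes did, and SSA2 (-0.23 ± 0.28) and HSC82 (-0.29 ± 0.16) did not pass. In CRCM 7 genes rose, where 39.7% of all genes did, most of all HSP42 (2.94 ± 0.19) and SSA3 (2.21 ± 0.21). SSA2 (-1.79 ± 0.28) and HSC82 (-1.32 ± 0.16) fell there, where 36.5% of all genes fell, and SSA1 had 0.07 ± 0.25. With SSA1 and SSA2 summed, the change in CRCM was -0.81 ± 0.27 (adjusted p = 0.0097). With HSP82 and HSC82 summed it was -0.58 ± 0.20 (adjusted p = 0.0101), although HSP82 alone rose. Without TMM factors the median of all genes at 24 h against log phase was -0.16 in water, 0.06 in NRCM, and 0.39 in CRCM.

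HSP104 illustrates the course on the scale over 27 libraries. In CRCM the log-phase, 24 h, and 96 h levels were 361.8 ± 15.8, 726.2 ± 33.1, and 956 ± 212.4 CPM. In NRCM they were 385.7 ± 40.8, 2907 ± 369.8, and 3274 ± 434.2 CPM, and in water 361.8 ± 112.5, 5109 ± 1116, and 2620 ± 151.4 CPM. The groups that started alike at log phase thus parted at 24 h, and at 96 h CRCM was still the lowest. For SSA3 the levels in CRCM were 42.53 ± 2.06, 200.7 ± 13.5, and 2164 ± 867.2 CPM in the same order of times. In water SSA3 had 48.39 ± 5.62, 1612 ± 310.2, and 971.5 ± 92.3 CPM.

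Between 96 h and 24 h, the direction of the members depended on the scaling. With TMM factors 7 genes fell in water (26.5% of all genes fell), namely SSA1, SSA3, SSA4, HSP82, HSP104, HSP42, and BTN2. Without the factors the median of all genes moved to 0.71 in water, 0.51 in NRCM, and 0.13 in CRCM. In water only SSA4 (-0.77) and BTN2 (-0.81) then still passed as lower, while HSC82 (0.35) and HSP78 (0.40) passed as higher. Of all 6658 genes, 602 were then lower and 4570 higher in water. In CRCM 5 genes rose with either scaling, where 22.4% of all genes rose with TMM: SSA3 (3.34 ± 0.21), BTN2 (1.14 ± 0.29), HSP82 (0.80 ± 0.23), HSP78 (0.63 ± 0.16), and HSC82 (0.63 ± 0.16). HSP104 (0.37 ± 0.20) passed as well without the factors (0.51), where 1967 of 6658 genes were higher. Without CRCM replicate 3 at 96 h, HSP82 had 0.59 (adjusted p = 0.0517) and SSA3 3.67. In NRCM SSA3 (0.53 ± 0.21) and HSP78 (0.73 ± 0.16) rose, where 28.8% of all genes did, and SSA4 (-1.07 ± 0.23) and HSP42 (-0.51 ± 0.19) fell, where 28.2% did. Without the factors 7 genes passed as higher in NRCM and 1 as lower, and HSP42 had 0.00. Of all 6658 genes, 3794 were then higher and 806 lower in NRCM. With TMM factors the calls of SSA1 in water and of SSA3 and HSP42 in NRCM also rest on single libraries. SSA1 lost its call without any 1 of 5 libraries (adjusted p up to 0.103), SSA3 without any 1 of 4 (up to 0.152), and HSP42 without any 1 of 4 (up to 0.135). With SSA1 and SSA2 summed, the change in water was -0.63 ± 0.27 and not called (adjusted p = 0.057).

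The effect of CRCM at 96 h was tested against that at 24 h as an interaction in the model of 27 libraries. The difference (96 h minus 24 h, CRCM against water) was above 0 for 8 of the 10 genes at an adjusted p under 0.05, where 15.5% of all genes were. SSA3 had the largest, 4.06 ± 0.30 (adjusted p = 1.54e-09), followed by BTN2 with 2.63 ± 0.40 and HSP82 with 1.95 ± 0.32. Without TMM factors, which moved the median of all genes to -0.55, 4 genes passed: SSA3 (3.51), BTN2 (2.08), HSP82 (1.40), and HSP104 (0.77). Of all 6658 genes, 401 were then above 0. Without CRCM replicate 3 at 96 h, the difference was 4.38 for SSA3, 2.18 for BTN2, and 0.86 for SSA2, whose adjusted p was then 0.116. The call of SSA2 (1.05 ± 0.39, adjusted p = 0.0459) held without CRCM replicate 1 or 2 at 96 h and was lost without any 1 of the other 10 libraries. With SSA1 and SSA2 summed, the difference was 0.85 ± 0.39 and not called (adjusted p = 0.101). For NRCM against water 3 genes passed, where 1.02% of all genes did: HSP82 (1.32 ± 0.32), SSA3 (1.25 ± 0.30), and HSP78 (1.01 ± 0.22). That count was 0 without water replicate 3 at 24 h, water replicate 1 or 2 at 96 h, NRCM replicate 2 at 24 h, or NRCM replicate 1 at 96 h. It was 1 without water replicate 1 at 24 h, water replicate 3 at 96 h, or NRCM replicate 3 at 96 h, and 5 without water replicate 2 at 24 h.

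Other chaperone genes were listed by the complex or compartment in which they act. Of 8 co-chaperones and nucleotide exchange factors of Hsp70, 6 were lower and 0 higher in CRCM than in water at 24 h (median log2 fold change -1.37). FES1 (-2.25 ± 0.23), a nucleotide exchange factor, and SIS1 (-1.69 ± 0.13), a J-domain protein, fell the most, and SNL1 (-0.15 ± 0.14) and XDJ1 (0.29 ± 0.18) did not pass. Among 9 co-chaperones of Hsp90 the directions were mixed, with 4 lower and 2 higher (median -0.21). CPR6 (-2.39 ± 0.21), a cyclophilin, and STI1 (-1.91 ± 0.16), which links Hsp70 and Hsp90, fell, and CNS1 (0.47 ± 0.12) and PPT1 (0.47 ± 0.14), a phosphatase, rose. Of 5 other small heat shock and sorting genes, 4 fell (median -1.95), led by HSP26 (-2.58 ± 0.17), a small heat shock protein, and HSP30 (-2.09 ± 0.23), a plasma membrane protein. HSP31 had -0.83 ± 0.12 and HSP12 had -0.32 ± 0.14 (adjusted p = 0.074). CUR1, the paralog of BTN2, had -1.95 ± 0.21.

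Chaperones of organelles and of new proteins formed 4 further lists. Of 5 mitochondrial chaperones 3 were lower in CRCM than in water at 24 h, led by HSP60 (-1.03 ± 0.19) and MDJ1 (-0.85 ± 0.17), and MGE1 (0.42 ± 0.11) was higher, with SSC1 at -0.36 ± 0.19. Of 7 endoplasmic reticulum chaperones 3 were lower and 3 higher: KAR2 (-2.11 ± 0.15), the Hsp70 of that compartment, and PDI1 (-1.26 ± 0.13), a disulfide isomerase, fell, while SCJ1 (0.54 ± 0.09) and JEM1 (0.38 ± 0.08), both J-domain proteins, rose. Of 4 ribosome-bound chaperones SSB2 (-0.67 ± 0.21) and SSZ1 (-0.33 ± 0.10) fell, with SSB1 at -0.61 ± 0.26 and ZUO1 at -0.00 ± 0.18. The 8 CCT subunits, which form the cytosolic chaperonin that folds actin and tubulin, had a median of 0.07, with TCP1 (-0.24 ± 0.08) lower, CCT3 (0.50 ± 0.09) higher, and CCT4 (-0.02 ± 0.10) and CCT8 (0.19 ± 0.08) without a call. Of the regulators, HSF1 had 0.05 ± 0.09 (adjusted p = 0.677), MSN4 had -0.32 ± 0.13 (adjusted p = 0.066), and MSN2 rose by 0.88 ± 0.14. These lists are described by their counts and medians, beside 24.2% of all genes lower and 27.2% higher, with no test of a list.

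**Figure D4:**
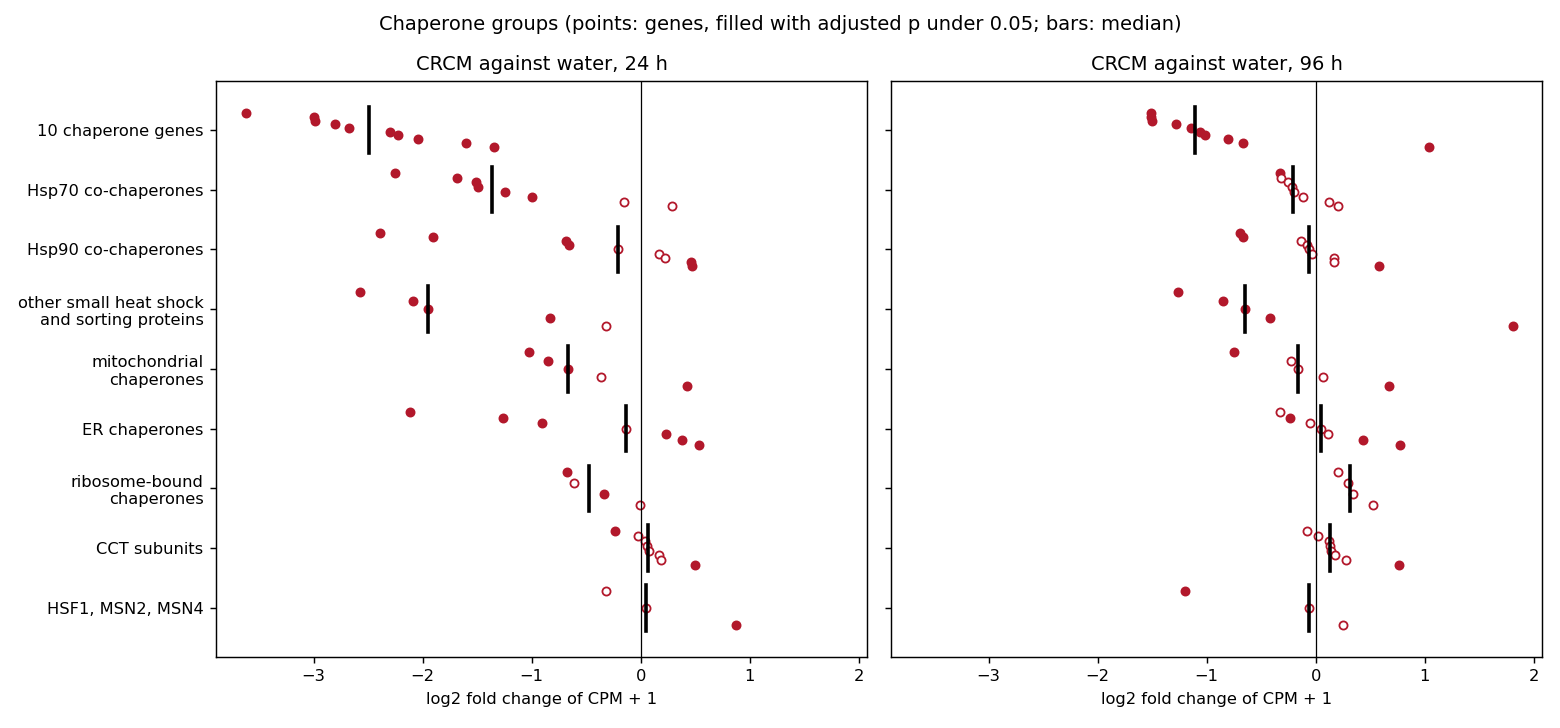
Log2 fold changes of CPM + 1 in CRCM against water at 24 h (left) and 96 h (right) for the 10 chaperone genes and 8 lists of related genes, with 1 point per gene (filled where the adjusted p was under 0.05) and a bar at each median. At 24 h the medians run from -2.49 for the 10 genes to 0.07 for the CCT subunits, and at 96 h from -1.10 to 0.32 for the ribosome-bound chaperones.

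At 96 h, where 21.8% of all genes were lower and 19.6% higher in CRCM against water, the medians were -0.21 for the Hsp70 co-chaperones (1 of 8 lower), -0.06 for the Hsp90 co-chaperones (2 of 9 lower, 1 higher), and -0.65 for the other small heat shock and sorting genes (4 of 5 lower, 1 higher). The 1 lower Hsp70 co-chaperone was FES1 (-0.33 ± 0.11). Among the Hsp90 co-chaperones CPR6 (-0.69 ± 0.12) and STI1 (-0.67 ± 0.14) were still lower, and AHA1 was higher (0.58 ± 0.14). HSP26 was still lower (-1.27 ± 0.29), and HSP12 was higher (1.81 ± 0.26). The mitochondrial list had a median of -0.16 (1 of 5 lower, 1 higher) and the endoplasmic reticulum list 0.05 (1 of 7 lower, 2 higher). The medians were 0.32 for the ribosome-bound list (0 of 4 lower, 0 higher) and 0.13 for the CCT subunits (0 of 8 lower, 1 higher). In these lists MDJ1 (0.67 ± 0.22), EUG1 (0.78 ± 0.18), SCJ1 (0.43 ± 0.15), and CCT6 (0.77 ± 0.12) were higher. SSC1 (-0.75 ± 0.15) and JEM1 (-0.23 ± 0.08) were lower. MSN4 was lower (-1.20 ± 0.22), and HSF1 had 0.25 ± 0.10 (adjusted p = 0.0564).

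The profiles of the 10 genes over the 9 group means were standardized and averaged. Among the 10, HSP104 followed this mean most closely (Pearson r = 0.993, rank 1 of 6658 genes, members included). SSA2 (0.391) and HSC82 (0.319) followed it least. Each member is part of the mean, so its r and rank are partly fixed by its own values. They cannot be compared with those of genes outside the set. Outside the lists the 5 genes with the most similar profile were BIO4 (0.987), a biotin synthesis gene, the uncharacterized YPR145C-A (0.987), PRM15 (0.974), a phosphoribomutase gene, the uncharacterized YDR182W-A (0.971), and SDS22 (0.971), a regulator of protein phosphatase 1. BIO4 averaged 27.8 CPM in CRCM, 89.4 CPM in NRCM, and 121.3 CPM in water at 24 h. At log phase BIO4 had 14.6, 15.6, and 15.6 CPM in CRCM, NRCM, and water. These values are a description over 9 points that share libraries within each group.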

How the data were processed

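RNA of BY4741 was sequenced in 27 libraries, and 1 table was used. Per the study's methods, poly(A) RNA was mapped with bowtie2 to sacCer3 and tested with DESeq2, and the submitters' processing notes also name bedtools and edgeR. Versions, the gene assignment step, and its strand setting are not given in the sources used here. The values are a signal, reads per gene, which the authors deposited divided by the library total (each column sums to 1). All columns were used (0 left out). The total that makes each library's values whole was recovered, and 100% of the testable values (38.9% of those above 0) were whole within 0.1 read. A gene at 1 CPM rests on 7 reads in the shallowest and 114 in the deepest library.

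CPM were divided by TMM factors (edgeR 4.0.16) and log2(CPM + 1) was tested with limma 3.58.1 (R 4.3.3, trended variance). Genes with at least 1 CPM in 3 libraries were tested, with Benjamini-Hochberg adjustment over all genes and a threshold of 0.05. Supplements were compared over the 9 libraries of a time point, and times and interactions over 27. Alternatives were a pseudocount of 0.5, no filter, no TMM, edgeR's quasi-likelihood test and DESeq2 1.42.0 on recovered reads, a replicate block, summed paralogs, other sets of libraries, and each library left out. The reported tests treated all libraries as unpaired, and the replicate block was an alternative only. Every same-numbered pair's deviations from the group means correlated above 0.1 for CRCM and NRCM at log phase (0.481 to 0.751) and 24 h (0.227 to 0.340). There the block changed no member's call. All members are named, and other lists are given by counts, with their highest and lowest genes at 24 h. At 96 h only some genes of these lists are named. Outside the lists the 5 most similar profiles are named. At 24 h CUR1 was named outside the rule for lists, after its value was seen. Members and lists were chosen with earlier results of these data known. Promoters were read from the RefSeq sequence of sacCer3.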

Additional observations from a re-analysis of the deposited data

Results flagged for a closer look

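The effect of a supplement at 96 h differed from that at 24 h, by the interaction test, for 8 chaperone genes in CRCM against water and 3 in NRCM against water. All were differences above 0, as for 15.5% of all genes in CRCM and 1.02% in NRCM. For CRCM the difference on the log2 scale (96 h minus 24 h) was 4.06 for SSA3, 2.63 for BTN2, 1.95 for HSP82, 1.32 for HSP104, 1.20 for SSA4, 1.05 for SSA2, 0.96 for HSC82, and 0.91 for HSP78. Of these 8 genes, SSA3 was the only gene whose effect changed sign, with 1.04 at 96 h and -3.00 at 24 h in CRCM against water. For NRCM the difference was 1.32 for HSP82, 1.25 for SSA3, and 1.01 for HSP78. Without TMM factors the calls of SSA2, SSA4, HSC82, and HSP78 in CRCM and all 3 in NRCM were lost. With a library left out, the NRCM count ran from 0 to 5. With SSA1 and SSA2 summed, the CRCM difference was 0.85 and not called (adjusted p = 0.101).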

How the results depend on the processing

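All 150 alternative values of the 10 genes kept their call in CRCM against water at 24 h, and all 150 did in CRCM against NRCM at 24 h, over 9 settings and 6 left-out libraries. NRCM against water at 24 h kept 109 of 150 and lost 26 calls, and its count of 6 lower genes was 1 with only the 6 libraries compared and 1 to 8 with a library left out. NRCM against water at 96 h, with 0 higher genes, gave 3 with DESeq2, 2 with the 6 libraries, and 1 in the model of 27 libraries, and CRCM against NRCM at 96 h gave 0 to 1 higher with a library left out. Without TMM factors NRCM at 96 h against 24 h gave 7 higher and 1 lower (1 to 3 and 1 to 2 with a library left out), water gave 2 higher and 2 lower, and the interaction gave 4 higher in CRCM and 0 in NRCM. The NRCM interaction gave 6 with DESeq2 and 0 to 5 with a library left out, and CRCM at 96 h against 24 h gave 1 lower with 6 libraries. The cause was not tested. Shares of all genes are not given for the DESeq2 interaction, the fits of 6 libraries, the supplements in the model of 27 libraries, or the left-out libraries. Those counts show only how the members' calls moved. Leaving out the factors also moved the calls over all genes, to 3450 higher and 544 lower in CRCM against NRCM at 24 h (1473 and 1301 with TMM), 928 and 1878 in CRCM against water at 96 h (1302 and 1447), 401 and 3300 in the CRCM interaction (1034 and 959), 25 and 46 in the NRCM interaction (68 and 24), 584 and 292 in NRCM against water at 24 h (455 and 418), and 489 and 1108 at 96 h (833 and 797). For CRCM at 24 h against log phase they were 3375 and 1868 (2640 and 2427), and at 96 h against 24 h they were 1967 and 1211 in CRCM (1494 and 1650), 3794 and 806 in NRCM (1919 and 1878), and 4570 and 602 in water (1803 and 1766).

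Values that changed sign were mostly near 0. HSP42 in NRCM against water at 24 h had 0.05 without TMM, 0.01 with 6 libraries, and -0.14 to 0.14 with a library left out. At 96 h, with a library left out, BTN2 had -0.20 to 0.02 in NRCM against water and SSA3 had -0.04 to 0.59 in CRCM against NRCM. Without TMM, water at 96 h against 24 h had 0.04 for SSA1, 0.09 for SSA2, 0.35 for HSC82, and 0.40 for HSP78, and NRCM had 0.00 for HSP42 and 0.48 for BTN2. With a library left out, NRCM gave -0.31 to 0.19 for BTN2 and -0.03 to 0.20 for SSA1. SSA1 in CRCM at 24 h against log phase had -0.01 with DESeq2 and -0.08 to 0.34 with a library left out, and SSA2 in NRCM had -0.41 to 0.09. Summing paralogs, which puts both genes in 1 value, gave -0.81 for SSA1 and -0.58 for HSP82 in CRCM and 0.74 for SSA2 and 0.98 for HSC82 in NRCM at 24 h against log phase. Where same-numbered libraries did not all correlate above 0.1, the replicate block added HSC82 in NRCM (adjusted p = 0.0324) and SSA2 in water (0.026) at 96 h against 24 h. It also added BTN2 in the NRCM interaction (0.0312), and SSA3 and HSC82 in NRCM against water at 24 h. The block changed no other member's call.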
